A study of Mus musculus with 8 samples.

Results

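The genes described here are 10 genes of the actin cytoskeleton, taken by name from 54532 listed genes: the thymosins Tmsb4x and Tmsb10, the actin-binding proteins Pfn1 and Cfl1, the actins Actb, Actg1 and Acta2, and the contractile genes Tagln, Tpm1 and Myl9. Tmsb4x was included because of its strong rise in shMCT-1, so its values in that comparison are a description and carry no test. Expression was measured by RNA sequencing of poly(A)-selected RNA from 4T1, a mouse mammary tumor cell line that lacks the estrogen, progesterone and HER2 receptors. All cells stably carried an shRNA, either a scramble control or an shRNA against MCT-1 (shMCT-1), and were grown in RPMI-1640 with 10% fetal bovine serum and 6 µg/ml puromycin. They received an antibody against the mouse IL-6 receptor (anti-IL-6R) at 100 ng/ml for 48 h, or IgG. Each background with each treatment made up a group (4 groups, written as scramble + IgG and so on) of 2 libraries, which the submitters describe as independent biological replicates. Each background is a cell population of its own that was selected in puromycin, so an effect of shMCT-1 and a difference between the populations cannot be told apart. In bulk RNA, fewer cells of a type and less RNA per cell cannot be told apart either.

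Actin exists in cells as monomers (G-actin) and as filaments (F-actin). Thymosin beta-4 (Tmsb4x) and thymosin beta-10 (Tmsb10) bind actin monomers and keep them out of filaments. Profilin-1 (Pfn1) also binds monomers, but hands them to growing filament ends, while cofilin-1 (Cfl1) severs and depolymerizes old filaments. Actb and Actg1 encode the cytoplasmic beta- and gamma-actin that every cell uses. Acta2 (smooth muscle alpha-actin), Tagln (transgelin) and Myl9 (a regulatory light chain of myosin II) are markers of smooth muscle and myofibroblasts, and Tpm1 encodes a tropomyosin that lies along actin filaments. Many of these genes can be switched on by serum response factor (SRF). Some of its cofactors, among them Mrtfa and Mrtfb, are held in the cytoplasm by free actin monomers.

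Library totals ranged from 19839255 to 33063535 counts, and each shMCT-1 library held fewer counts than each scramble library. Levels are given in CPM, counts scaled to a library total of 1000000. Mcts1, the gene that the shRNA targets, stood at 11.8 to 15.4 CPM in the 4 scramble libraries and at 4.92 to 6.70 CPM in the 4 shMCT-1 libraries. The epithelial markers Krt8, Krt18 and Cdh1 were expressed in every library, and Epcam stood at 3.75 to 4.93 CPM in scramble and 49.4 to 54.5 CPM in shMCT-1. Of 5 smooth muscle markers, only Smtn was above 1 CPM, and Myh11, Des, Cnn1 and Actg2 stayed at or below 0.454 CPM. Among the leukocyte markers, Ptprc reached at most 0.137 CPM and Cd3e was at 0, while Cd68 was at 2.66 to 3.34 CPM in scramble and 5.42 to 7.51 CPM in shMCT-1. Of 7 fibroblast markers 2 passed 1 CPM in at least 2 libraries, Pdgfra and Col1a1. The list's sum was 15.3 to 17.3 CPM in scramble and 12.7 to 16.3 CPM in shMCT-1. Most of it was Pdgfra, at 14.6 to 16.7 CPM in scramble and 10.9 to 14.9 CPM in shMCT-1. Col1a1 went the other way, from 0.249 to 0.484 CPM in scramble to 1.07 to 1.66 CPM in shMCT-1. The sum of 3 endothelial markers was 0.096 to 0.332 CPM in scramble and 0.554 to 1.82 CPM in shMCT-1. The part of these shifts in the values below was not tested.

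**Figure D1:**
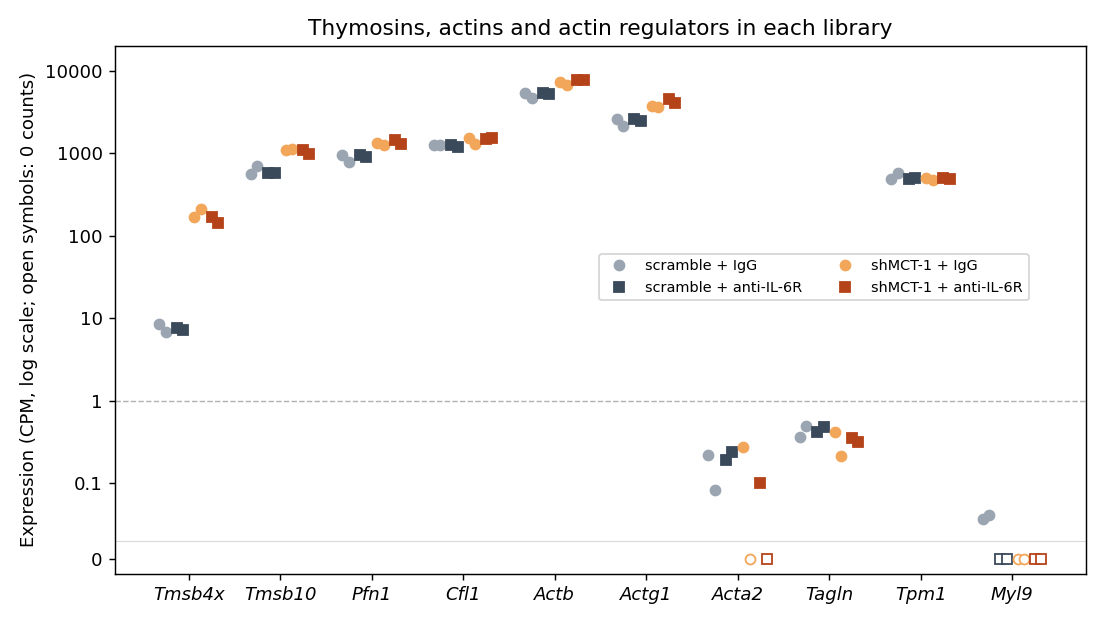
Level of each of the 10 genes in each of the 8 libraries, in CPM on a log scale. Circles are IgG, squares are anti-IL-6R, grey and dark symbols are scramble, and orange and red symbols are shMCT-1. Open symbols mark 0 counts and the dashed line is 1 CPM. Tmsb4x moves from 6.76 to 8.39 CPM in scramble to 142 to 210.5 CPM in shMCT-1, while Acta2, Tagln and Myl9 stay below 1 CPM throughout.

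The thymosins differ in sequence as well as in level. Tmsb4x (ENSMUSG00000049775) is on chromosome X of GRCm38, bases 167207093 to 167209315 on the minus strand, and Tmsb10 (ENSMUSG00000079523) on chromosome 6 from 72957347 to 72958748, also on the minus strand, in the GENCODE M21 annotation. Their spliced coding sequences have the same length of 132 bases without the stop codon. They are shown whole because the widest difference of the list concerns a member of this pair of similar genes, and capitals mark the 40 bases at which they differ.
Tmsb4x: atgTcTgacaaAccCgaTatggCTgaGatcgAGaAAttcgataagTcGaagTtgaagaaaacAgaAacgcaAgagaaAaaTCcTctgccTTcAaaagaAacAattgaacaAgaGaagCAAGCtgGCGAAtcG
Tmsb10: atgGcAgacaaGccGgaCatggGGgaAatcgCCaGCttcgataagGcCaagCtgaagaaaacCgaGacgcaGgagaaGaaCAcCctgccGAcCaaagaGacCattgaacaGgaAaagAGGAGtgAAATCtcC
The sequences were identical at 92 of 132 bases (69.7%) and encoded the same residue at 33 of 44 codons.

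Tmsb4x was low in every scramble library and high in every shMCT-1 library. It stood at 8.39 and 6.76 CPM in scramble + IgG and at 7.65 and 7.29 CPM in scramble + anti-IL-6R. The shMCT-1 libraries stood at 166.5 and 210.5 CPM with IgG and at 167 and 142 CPM with anti-IL-6R. The groups did not overlap between backgrounds, and the lowest shMCT-1 library lay far above the highest scramble library. The fitted difference was 25.6-fold within IgG (log2 fold change 4.68, standard error 0.16) and 21.5-fold within anti-IL-6R (log2 fold change 4.43, standard error 0.16). Ranked by log2 fold change, Tmsb4x was number 79 of 12704 tested genes within IgG and number 93 within anti-IL-6R. The scramble value rested on 163 to 241 counts per library and the shMCT-1 value on 3128 to 4937 counts.

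Tmsb10 had the higher level of the pair in both backgrounds, also per kilobase, and rose in shMCT-1. It stood at 564 and 696 CPM in scramble + IgG, 572.5 and 570 CPM in scramble + anti-IL-6R, 1088 and 1129 CPM in shMCT-1 + IgG, and 1102 and 973 CPM in shMCT-1 + anti-IL-6R. Each shMCT-1 library lay above each scramble library, and the highest scramble value came from replicate 2 of scramble + IgG. Compared within IgG, the log2 fold change was 0.86 ± 0.12 (standard error, n = 2 libraries per group, adjusted p = 0.000295 by the quasi-likelihood test of edgeR, with a threshold of 0.05). Within anti-IL-6R it was 0.92 ± 0.12 (standard error, n = 2 libraries per group, adjusted p = 0.000202 from the same edgeR test). Tmsb4x made up 0.962% to 1.47% of the counts of both thymosins in scramble and 12.8% to 15.7% in shMCT-1. The ratio of Tmsb4x to Tmsb10 within a library was 0.00972 to 0.0149 in scramble and 0.146 to 0.187 in shMCT-1. The other thymosins listed were near 0: Tmsb15b2 reached 0.0727 CPM in a library of scramble + IgG, and Tmsb15a, Tmsb15b1 and Tmsb15l had no counts.

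Actb and Actg1 had the highest levels of the list, also per kilobase. Actb (ENSMUSG00000029580, chromosome 5 from 142903115 to 142906754, minus strand) and Actg1 (ENSMUSG00000062825, chromosome 11 from 120345690 to 120348542, minus strand) encode proteins with the same residue at 371 of 375 codons. Their coding sequences share 997 of 1125 bases (88.6%). The first 30 coding bases are shown because the proteins are known to differ close to the N-terminus, with capitals at the 8 bases that differ.
Actb: atggaTgaCgaTatcgcTgcGctGgtcGtC
Actg1: atggaAgaAgaAatcgcCgcActCgtcAtT
A read that covers no such difference can fit either gene, and RSEM shares such reads out between genes. Actb stood at 5320 and 4737 CPM in scramble + IgG, 5344 and 5182 CPM in scramble + anti-IL-6R, 7383 and 6688 CPM in shMCT-1 + IgG, and 7744 and 7646 CPM in shMCT-1 + anti-IL-6R. All shMCT-1 libraries were above all scramble libraries. Relative to scramble, the log2 fold change in shMCT-1 was 0.53 ± 0.09 within IgG (standard error, n = 2 libraries per group, adjusted p = 0.00105, edgeR) and 0.60 ± 0.09 within anti-IL-6R (standard error, n = 2 libraries per group, adjusted p = 0.000491, edgeR).

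Actg1 rose further than Actb. It stood at 2590 and 2122 CPM in scramble + IgG, 2599 and 2470 CPM in scramble + anti-IL-6R, 3790 and 3681 CPM in shMCT-1 + IgG, and 4546 and 4120 CPM in shMCT-1 + anti-IL-6R. The backgrounds again did not overlap, and the lowest value was that of replicate 2 of scramble + IgG. The log2 fold change was 0.71 ± 0.11 within IgG (standard error, n = 2 libraries per group, adjusted p = 0.000449, edgeR) and 0.83 ± 0.11 within anti-IL-6R (standard error, n = 2 libraries per group, adjusted p = 0.000192, edgeR). Within each library, the ratio of Actg1 to Actb counts was 0.487 and 0.448 in scramble + IgG and 0.486 and 0.477 in scramble + anti-IL-6R. Silenced cells had ratios of 0.513 and 0.550 in shMCT-1 + IgG and 0.587 and 0.539 in shMCT-1 + anti-IL-6R. The ratio was higher in each of the 4 shMCT-1 libraries than in each of the 4 scramble libraries, by 0.21 on the log2 scale (exact permutation test, two-sided, 4 against 4, p = 0.0286, the smallest this design can give). With 2 against 2 within a treatment, the smallest p would be 0.333. Processed copies that match the coding sequence took 4.40% of the counts of Actg1 and its copies and 0.0793% of those of Actb, and with the copies added the ratio differed by 0.21 as well. The muscle actins Acta1, Actc1 and Actg2 reached at most 0.299 CPM in any library.

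Pfn1 was higher in shMCT-1 as well. It stood at 962 and 790 CPM in scramble + IgG, 949 and 902 CPM in scramble + anti-IL-6R, 1340 and 1275 CPM in shMCT-1 + IgG, and 1464 and 1301 CPM in shMCT-1 + anti-IL-6R. No shMCT-1 library was as low as a scramble library. The log2 fold change was 0.62 ± 0.11 within IgG (standard error, n = 2 libraries per group, adjusted p = 0.001, edgeR) and 0.64 ± 0.11 within anti-IL-6R (standard error, n = 2 libraries per group, adjusted p = 0.00089, edgeR). Relative to the sum of Actb and Actg1, Pfn1 was at 0.115 to 0.122 in scramble and 0.111 to 0.123 in shMCT-1, so that the ranges overlapped. The paralog Pfn2, a profilin best known from neurons, stood at 0.256 to 0.664 CPM in scramble and 4.21 to 4.74 CPM in shMCT-1. Its fitted log2 fold changes were 3.13 within IgG and 3.98 within anti-IL-6R. Pfn2 met the filter of over 1 CPM in at least 2 libraries through shMCT-1 alone, so these values are a description.

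Cfl1 showed a smaller difference. It stood at 1253 and 1267 CPM in scramble + IgG, 1242 and 1180 CPM in scramble + anti-IL-6R, 1525 and 1301 CPM in shMCT-1 + IgG, and 1470 and 1525 CPM in shMCT-1 + anti-IL-6R. The libraries of the backgrounds did not overlap, although replicate 2 of shMCT-1 + IgG lay close to the scramble libraries. Within IgG the log2 fold change of 0.21 ± 0.10 did not pass the threshold (standard error, n = 2 libraries per group, adjusted p = 0.0898, edgeR). Within anti-IL-6R it was 0.36 ± 0.10 (standard error, n = 2 libraries per group, adjusted p = 0.00961, edgeR), and that call was lost without replicate 2 of scramble + anti-IL-6R (log2 fold change 0.32, adjusted p = 0.103). Without replicate 2 of shMCT-1 + IgG the difference within IgG passed (log2 fold change 0.32, adjusted p = 0.0425). Relative to Actb plus Actg1, Cfl1 stood at 0.154 to 0.185 in scramble and 0.120 to 0.137 in shMCT-1, without overlap. Its paralog Cfl2, the muscle-type cofilin, fell from 76.2 to 89.0 CPM in scramble to 51.7 to 56.5 CPM in shMCT-1, by 0.57 on the log2 scale within IgG (adjusted p = 0.000618, edgeR). With length and GC content corrected for, neither Cfl2 call remained (log2 fold change -0.16, adjusted p = 0.152, within IgG and -0.03, adjusted p = 0.776, within anti-IL-6R, edgeR).

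**Figure D2:**
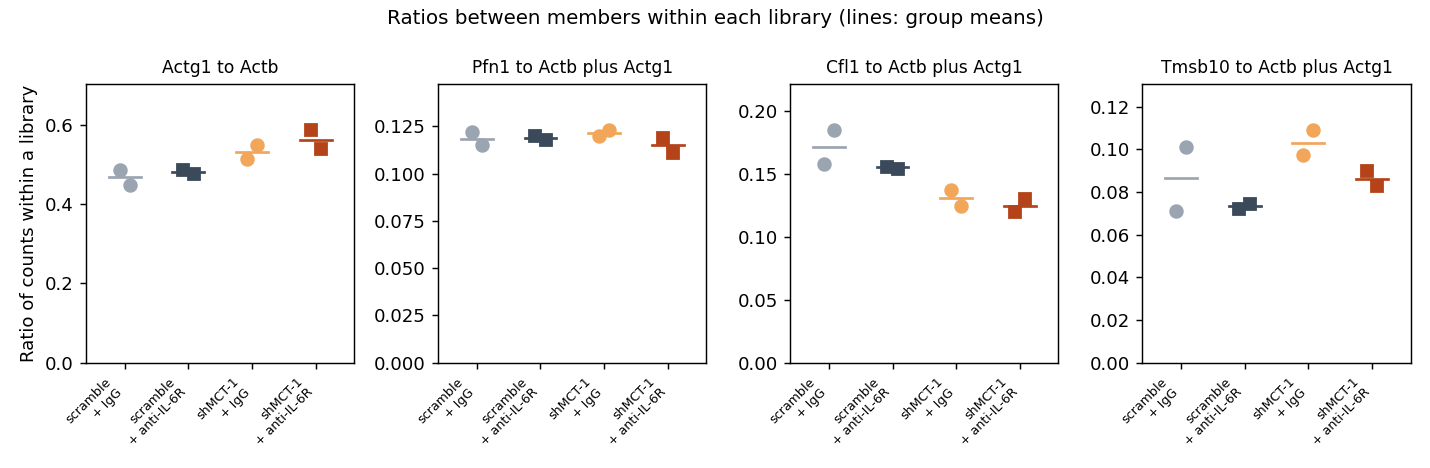
Ratios of counts between members within each library, for Actg1 to Actb and for Pfn1, Cfl1 and Tmsb10 to the sum of Actb and Actg1. Each point is a library, each line is the mean of the 2 libraries of a group, and the vertical axes start at 0. Actg1 to Actb is higher and Cfl1 to actin lower in shMCT-1, while the Pfn1 ratio overlaps between backgrounds. Replicate 2 of scramble + IgG has a Tmsb10 ratio of 0.101, against 0.0713 to 0.0745 in the other 3 scramble libraries.

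None of the contractile genes was called. Tpm1 stood at 494 and 574 CPM in scramble + IgG, 493 and 507 CPM in scramble + anti-IL-6R, 502 and 471 CPM in shMCT-1 + IgG, and 495 and 488 CPM in shMCT-1 + anti-IL-6R. These ranges overlapped. Its log2 fold change was -0.09 within IgG (95% interval -0.31 to 0.12, adjusted p = 0.432, edgeR) and 0.03 within anti-IL-6R (95% interval -0.19 to 0.25, adjusted p = 0.798, edgeR). Without replicate 1 of scramble + IgG the value within IgG passed the threshold (log2 fold change -0.22, adjusted p = 0.0482). Acta2 had 0 to 8 counts per library (at most 0.275 CPM, 2 libraries at 0), Tagln 5 to 16 counts (0.213 to 0.498 CPM) and Myl9 at most 1 count (6 libraries at 0). These 3 genes did not pass the filter and were not tested, and a count of 0 allows up to 0.0907 to 0.151 CPM at these depths (3 counts, counting error only). Tagln overlaps Pcsk7 on the opposite strand, which reached 22.9 CPM, and as the strand setting of the counting is not stated, reads of the 2 genes may not be told apart.

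**Figure D3:**
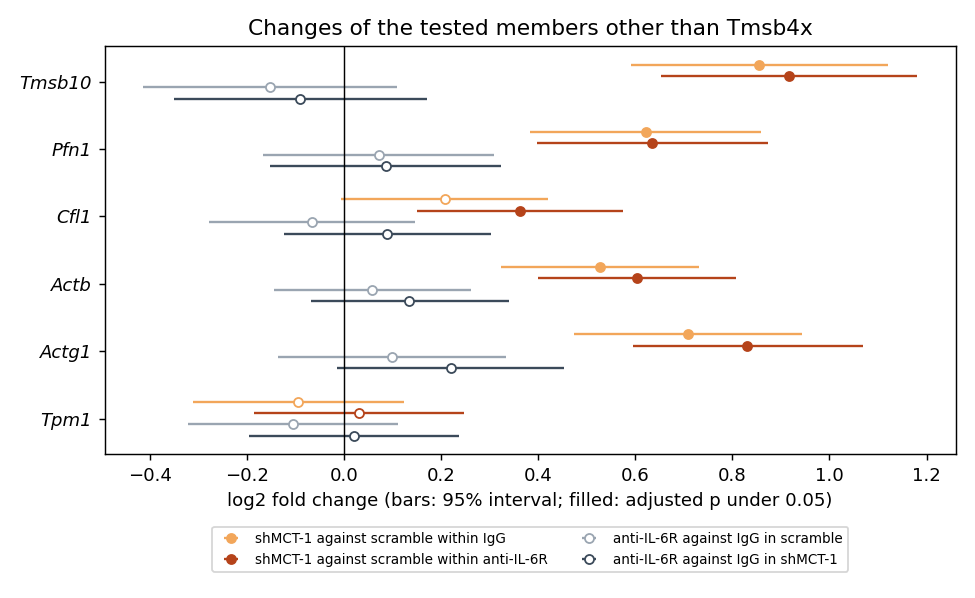
Log2 fold changes of the 6 tested members other than Tmsb4x, with 95% intervals, for shMCT-1 against scramble (orange and red) and for anti-IL-6R against IgG (grey and dark). Filled points passed an adjusted p of 0.05. The points of Tmsb10, Pfn1, Actb and Actg1 are filled for both shMCT-1 comparisons, that of Cfl1 within anti-IL-6R alone, and none is filled for anti-IL-6R against IgG.

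In total, 4 of the 9 members other than Tmsb4x were DEGs within IgG and 5 within anti-IL-6R, out of 6 tested, and all of these were higher in shMCT-1. Of all tested genes, 28.3% were called higher and 26.2% lower within IgG, 26.9% higher and 27.3% lower within anti-IL-6R, and 54.4% and 54.3% were called in either direction. The 4 shMCT-1 libraries lay above the 4 scramble libraries for 5 of the 6 tested members, and for 29.9% of all tested genes. The 10 genes took 1.02% to 1.12% of all counts in scramble and 1.48% to 1.70% in shMCT-1. Both comparisons of shMCT-1 with scramble also moved with transcript length: the median log2 fold change within IgG was 0.34 for the shortest of 5 length classes of the tested genes and -0.33 for the longest. The classes use the longest transcript of any type, and the shortest class ends at 1743 bases. Tmsb4x and Tmsb10, with 1371 and 1276 bases in all exons together, belong to it. The longest coding transcript of Pfn1 has 861 bases, but its exons together have 2405, and its class is not given here. With length and GC content corrected for, a correction chosen after the data were seen, the log2 fold changes within IgG were 4.50 for Tmsb4x, 0.56 for Tmsb10, 0.47 for Actg1, 0.34 for Pfn1, 0.33 for Actb and 0.04 for Cfl1, and all calls in both comparisons held. The part of transcript length in the members' values was not tested beyond this correction.

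Per kilobase of the longest coding transcript, the order of levels in scramble was Actb (2680 CPM per kb), Actg1 (1250), Pfn1 (1050), Tmsb10 (870), Cfl1 (525), Tpm1 (179) and Tmsb4x (8.71). In shMCT-1 it was Actb (3840 CPM per kb), Actg1 (2070), Pfn1 (1560), Tmsb10 (1550), Cfl1 (618), Tmsb4x (199) and Tpm1 (169). In scramble, the ranges of Actg1 and Pfn1 overlapped, as did those of Pfn1 and Tmsb10. In shMCT-1, Pfn1 and Tmsb10 overlapped, as did Tmsb4x (165 to 244 CPM per kb) and Tpm1 (163 to 174 CPM per kb). Measured per kilobase of all exons together, Pfn1 came below Tmsb10 and Cfl1 in scramble, so the order of those genes depends on the transcript chosen.

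Whether anti-IL-6R changed these genes was asked in each background. None of the 7 tested members was called between anti-IL-6R and IgG, in scramble or in shMCT-1 cells. No other tested gene was called either (0.0% of the tested genes, edgeR). Acta2, Tagln and Myl9 were not tested. At an unadjusted p under 0.05 there were 166 and 505 genes, none of them a member, and DESeq2 called 0 and 11 genes, with no member among them. For Actg1 in shMCT-1 the log2 fold change was 0.22 (95% interval -0.01 to 0.45, unadjusted p = 0.063 from edgeR). Tmsb4x in shMCT-1 had a log2 fold change of -0.28 (95% interval -0.57 to 0.01, unadjusted p = 0.06 from edgeR), and in scramble of -0.03 (95% interval -0.40 to 0.34). For Actb the intervals were -0.15 to 0.26 in scramble and -0.07 to 0.34 in shMCT-1. The response to anti-IL-6R did not differ detectably between backgrounds for any tested member. The interaction called 0 genes with edgeR, 315 at an unadjusted p under 0.05 (no member among them) and 6 with DESeq2 (no member among them). The interaction for Tmsb4x was -0.25 (95% interval -0.72 to 0.23) and for Actg1 0.12 (95% interval -0.21 to 0.45).

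Of 111 other genes of actin assembly and contraction in 14 lists, 86 were tested. Within IgG, 28 rose in shMCT-1 and 25 fell (61.6% called, against 54.4% of all tested genes, median log2 fold change -0.02 against 0.01). Within anti-IL-6R, 29 rose and 22 fell (59.3% called, against 54.3%, median 0.02 against 0.01). Pfn2, Lcp1 and Mylk were below 1 CPM in every scramble library and met the filter through the shMCT-1 libraries alone. Their part in these counts and in those that follow is therefore a description. Among the 36 genes with transcripts shorter than the median of all tested genes, 21 rose and 2 fell within IgG, and among the 50 longer ones 7 rose and 23 fell. The part of transcript length in the counts per list was not tested beyond the corrected values, by which 23 rose and 26 fell within IgG, and 34 rose and 17 fell within anti-IL-6R. The share of all tested genes called with the correction is not given here. Corrected counts, also those of single lists below, therefore cannot be set against it.

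The Arp2/3 complex, which starts branches on existing filaments, had 6 of 9 subunits higher and none lower within IgG, against 28.3% higher and 26.2% lower among all tested genes. With length and GC corrected for, 4 of the 9 were called higher and none lower, as Arpc1b and Arpc2 (log2 fold change 0.22, adjusted p = 0.0527, edgeR) no longer passed. Arpc5 rose by a log2 value of 0.89 (adjusted p = 7.06e-05, edgeR) and Arpc3 by 0.60 (adjusted p = 0.000263, edgeR), or by 0.34 (adjusted p = 0.00481) with the correction. Arpc1b, the subunit with the highest CPM, stood at 302 to 365 CPM in scramble and 382 to 411 CPM in shMCT-1 (log2 fold change 0.28, adjusted p = 0.0231, edgeR), a call lost under several alternatives, such as the length and GC correction (0.16, adjusted p = 0.108). Among capping and severing proteins, 5 of 8 rose and 1 fell, and Capg, which caps filament ends, went from 309 to 339.5 CPM to 467 to 523 CPM (log2 fold change 0.62, adjusted p = 0.000422, edgeR, and 0.27, adjusted p = 0.00696, with the correction). Upstream of Arp2/3, the WASP and WAVE proteins had 1 of 8 higher and 3 lower. Nckap1, a WAVE complex subunit, fell from 308 to 316 CPM to 163.5 to 204 CPM (log2 fold change -0.71, adjusted p = 0.000367, edgeR).

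Formins and Ena/VASP proteins, which elongate unbranched filaments, had 2 of 13 higher and 5 lower within IgG, and 2 and 4 within anti-IL-6R. For this list and the next ones, the shares among all tested genes within IgG were 28.3% higher and 26.2% lower. Fmnl2 fell from 83.3 to 99.0 CPM in scramble to 24.2 to 36.9 CPM in shMCT-1 (log2 fold change -1.53, adjusted p = 8.75e-05, edgeR), and Daam1 from 73.3 to 78.6 CPM to 31.1 to 46.1 CPM (-0.98, adjusted p = 0.000681, edgeR). Inf2, the gene of the list with the highest CPM, had a log2 fold change of -0.13 (adjusted p = 0.188, edgeR), and was called lower with length and GC corrected for (-0.32, adjusted p = 0.0042). Of the crosslinking proteins, 2 of 10 rose, Lcp1 among them, and 4 fell. Flna, filamin A, went from 1846 to 2053 CPM to 1207 to 1486 CPM (log2 fold change -0.54, adjusted p = 0.00104, edgeR). Lcp1, the plastin known from leukocytes, went from 0.249 to 0.736 CPM to 1.79 to 2.46 CPM (fitted log2 fold change 2.42). Lcp1 exceeded 1 CPM in shMCT-1 libraries alone and met the filter through them, so its value is a description. With the correction, 1 crosslinking gene was called higher and 5 lower, and Fscn1 (0.155, adjusted p = 0.135, edgeR) no longer passed. Cofilins and their regulators had 3 of 14 higher and 4 lower (5 and 4 with the correction), and Cap1, which recycles actin monomers, was at -0.04 (adjusted p = 0.693, edgeR).

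On the contractile side, 5 of 8 myosin light chain kinases and phosphatase subunits fell and 2 rose within IgG, against 26.2% lower and 28.3% higher among all tested genes. With length and GC corrected for, 3 were called lower and 1 higher: Rock1 (-0.30, adjusted p = 0.051, edgeR), Ppp1cb (-0.05, adjusted p = 0.603, edgeR) and Dapk3 (0.12, adjusted p = 0.26, edgeR) no longer passed. Mylk, of this list, stood at 0.327 to 0.539 CPM in scramble and 1.11 to 1.97 CPM in shMCT-1. It met the filter through the shMCT-1 libraries alone, so its part in the counts of genes called higher is a description. Of 6 myosin II chains 3 rose and 2 fell. The heavy chain Myh14 went from 0.727 to 1.39 CPM to 4.37 to 5.40 CPM (log2 fold change 2.67, adjusted p = 3.98e-05, edgeR), the light chain Myl6 rose by 0.74 (adjusted p = 0.000184, edgeR), and Myh9, at 817 to 1233 CPM the highest of the chains in CPM, fell by 0.34 (adjusted p = 0.0458, edgeR). The Myh9 call was lost in 5 of the 8 fits with a library left out, namely without replicate 2 of scramble + IgG (-0.19, adjusted p = 0.256), replicate 1 (-0.43, adjusted p = 0.0631) or 2 (-0.25, adjusted p = 0.246) of shMCT-1 + IgG, or replicate 1 (-0.34, adjusted p = 0.0716) or 2 (-0.34, adjusted p = 0.0699) of scramble + anti-IL-6R, and with the replicate block and the correction together (-0.27, adjusted p = 0.061). The light chains Myl12a and Myl12b, relatives of Myl9, stood at 143 to 252 CPM and 307 to 425 CPM, while Myl9 was near 0. Likewise Tagln2 was at 479 to 539 CPM in scramble and 629.5 to 758 CPM in shMCT-1 (log2 fold change 0.43, adjusted p = 0.0053, edgeR, and 0.10, adjusted p = 0.276, with length and GC corrected for), while Tagln was below 0.5 CPM. None of the 3 other tropomyosins passed within IgG, and Tpm4 passed within anti-IL-6R (0.29, adjusted p = 0.0242, edgeR). The Tpm4 call was lost without replicate 1 (0.29, adjusted p = 0.119) or 2 (0.29, adjusted p = 0.135) of scramble + anti-IL-6R or replicate 2 of shMCT-1 + anti-IL-6R (0.27, adjusted p = 0.0756). Within IgG, Tpm4 passed without replicate 2 of scramble + IgG (0.235, adjusted p = 0.0392) but not with all libraries (0.11, adjusted p = 0.341, edgeR). Srf itself stood at 116 to 121 CPM in scramble and 113 to 128 CPM in shMCT-1, with a log2 fold change of 0.03 (adjusted p = 0.783, edgeR). Its cofactor Mrtfa went from 71.8 to 77.3 CPM in scramble to 84.35 to 92.7 CPM in shMCT-1. Mrtfb went from 45.9 to 49.7 CPM to 25.05 to 36.3 CPM. Of 3 tested genes in the list of Srf and its cofactors, 1 was called higher and 1 lower within IgG. With length and GC corrected for, 0 were called higher and 1 lower.

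**Figure D4:**
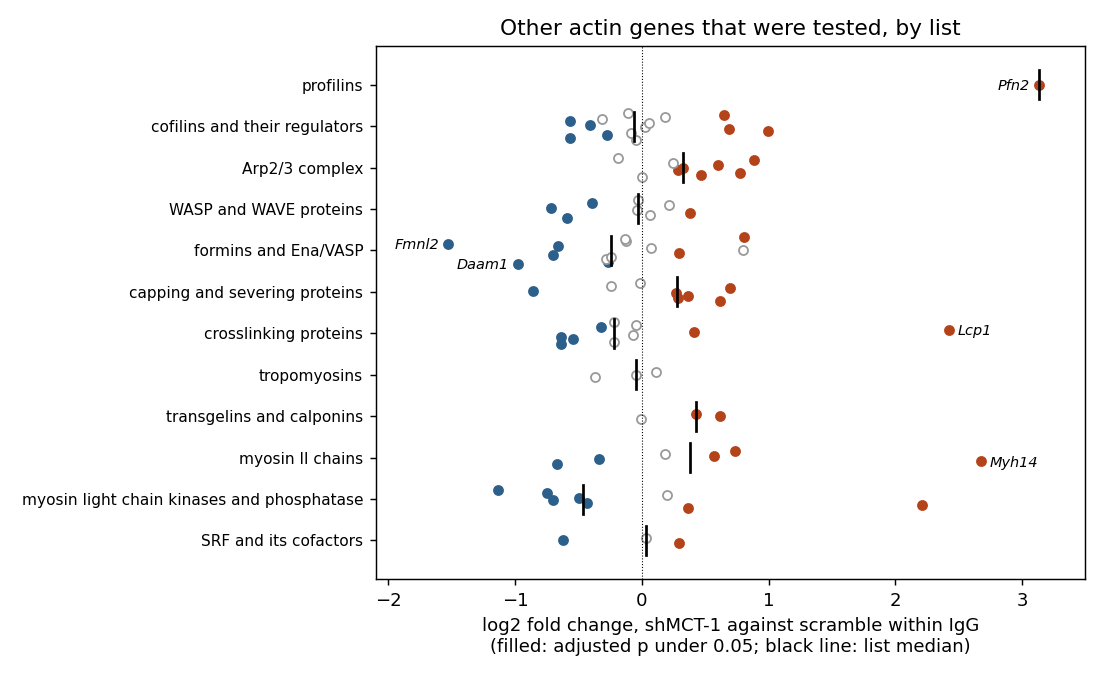
Log2 fold changes between shMCT-1 and scramble within IgG (positive: higher in shMCT-1) for the 86 tested actin genes that are not members, by list. Red points rose and blue points fell at an adjusted p under 0.05, open points did not pass, and black lines are list medians. Pfn2, Lcp1 and Mylk met the filter through the shMCT-1 libraries alone. The Arp2/3 complex has 6 red points and no blue ones. The lists of formins and of crosslinking proteins have more blue than red points. Of all tested genes, 28.3% were called higher and 26.2% lower.

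SRF binds the CArG box, searched here on both strands in RefSeq promoters of GRCm38 that run from 250 bases before to 50 bases after the start of transcription. Only the strict form was searched: CC, a run of A or T as long as in the windows below, then GG, with no mismatch allowed. Boxes that deviate from it, or that lie outside these bases, were not counted. Of the 8 members with a promoter entry, 2 held such a box, Actg1 and Myl9, against 1.81% of 27025 genes. The other members of the 10 had no entry and were not searched. The windows are shown because Actg1 rose and Myl9 was near 0, with the box in capitals. That of Actg1 lies at chr11:120348566-120348595 on the minus strand, its box 90 bases before the RefSeq start. That of Myl9 lies at chr2:156775293-156775322 on the plus strand, its box 161 bases before the RefSeq start. In both genes the RefSeq start used here is not the outermost start in GENCODE.
Actg1: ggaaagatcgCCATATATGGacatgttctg
Myl9: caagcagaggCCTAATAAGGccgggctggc
A match is a description of these letters and not a site of binding.

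Few of the genes around Tmsb4x were expressed. Of 30 genes within 1000000 bases on chromosome X, 7 were tested, and the other 23 reached at most 0.364 CPM, among them the Toll-like receptor genes Tlr8 and Tlr7. Prps2, which makes a precursor of nucleotides, lies 137007 bases away and stood at 38.5 to 50.6 CPM in scramble and 43.6 to 52.0 CPM in shMCT-1 (log2 fold change 0.18 within IgG, adjusted p = 0.251, edgeR). Gpm6b, a membrane glycoprotein gene at the far end, went from 0.0907 to 0.207 CPM to 1.14 to 2.02 CPM (fitted log2 fold change 3.35). Gpm6b met the filter through the shMCT-1 libraries alone, so its value is a description. Rab9, an endosomal GTPase, rose by 0.42 (adjusted p = 0.0062, edgeR) and Ofd1, a centriole protein gene, fell by 0.37 (adjusted p = 0.0333, edgeR). Trappc2, Tceanc and the pseudogene Rpl7a-ps11 did not pass. Over the 359 tested genes of chromosome X, the median log2 fold change was -0.04 and 23.1% were called higher.

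**Figure D5:**
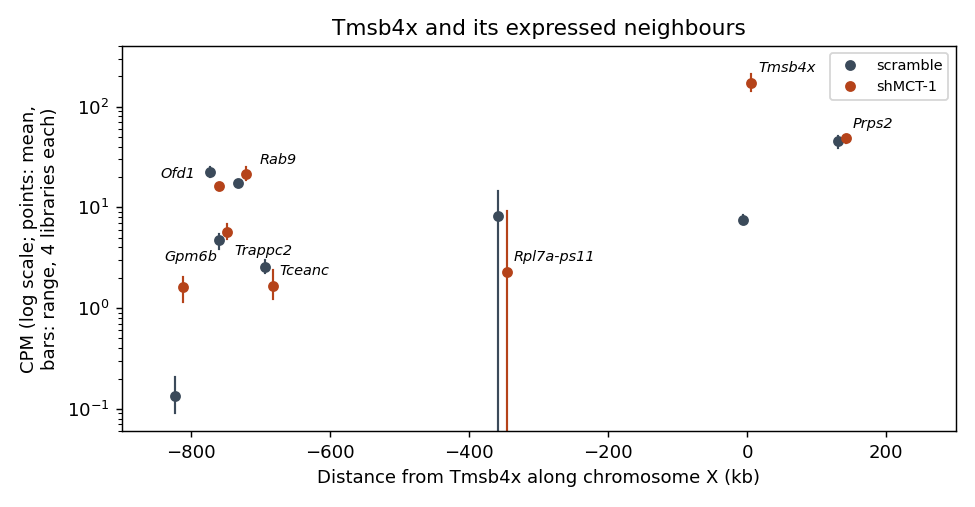
Mean level of Tmsb4x and of its 7 tested neighbours in scramble (dark) and shMCT-1 (red), in CPM on a log scale, against distance along chromosome X in kb. Bars give the range over 4 libraries, and those of Rpl7a-ps11 run off the lower edge to 0. Tmsb4x and Gpm6b show the wide gaps between backgrounds, and Prps2 does not. Tmsb4x was chosen for its rise, and Gpm6b met the filter through the shMCT-1 libraries alone.

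The genes whose pattern over the 8 libraries was most like that of Tmsb4x were Dact2, Igfbp7, Sgsm1, Chchd10 and Panx1, by Euclidean distance of log2(CPM + 0.5) centred on each gene's mean. The distance was 0.47 for Dact2 and 0.72 for Panx1. All 5 were near 0 in scramble, at no more than 0.212 CPM, and at 7.71 to 13.5 CPM in shMCT-1. They therefore entered the tested genes through the shMCT-1 libraries alone. Their fitted log2 fold changes within IgG were 6.58 (Igfbp7) to 11.05 (Dact2), against 4.68 for Tmsb4x. The likeness thus depends on the added 0.5, which narrows the differences of genes near 0.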

How the data were processed

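The authors sequenced poly(A)-selected RNA (Universal Plus mRNA-Seq kit) in 100-base read pairs, trimmed reads with cutadapt 1.18, aligned them to mm10 and GENCODE M19 with STAR 2.7.0d and deposited RSEM expected counts per gene and library, which are not normalized. Removal of duplicates by molecular identifiers and the strand setting are not given in the sources used here. Of the values above 0, 29.6% were not whole, and all were rounded here. Genes over 1 CPM in at least 2 libraries (12704 of 54532) were tested with edgeR 4.0.16 (R 4.3.3): TMM, 4 group means over all 8 libraries, quasi-likelihood test, Benjamini-Hochberg adjustment, called under 0.05. CPM values use library totals, where 1 CPM stood for 19.8 to 33.1 counts. With 2 libraries per group, p-values measure the spread between these libraries. Standard errors derive from the fold change and its F statistic. The ratio of Actg1 to Actb was tested by an exact permutation test.

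Members, gene lists and tests were chosen with earlier results of these data known. Named were the 10 members, the most abundant other gene of each list, the 3 largest rises and falls among genes called in both comparisons at a mean of at least 1 CPM without overlap, paralogs of members by level, and the 5 genes most like Tmsb4x; 1 gene that this rule named is not reported here. Arpc5, Arpc3, Mylk, Mrtfa, Mrtfb, the neighbours of Tmsb4x and the genes named for a lost call were chosen after their values were seen. Alternatives were RLE size factors, library totals alone, DESeq2 1.42.0, edgeR's exact test, no filter, over 1 CPM in 7 libraries, the replicate number as a block, copies added (90% identity over 50% of the coding sequence, BLAST 2.17.0) and each library left out; a loess correction for transcript length and GC content (span 0.3) was added after the data were seen. Coordinates and coding sequences come from GENCODE M21 on GRCm38, which holds 54495 of the identifiers once versions are dropped, and promoters from RefSeq.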

Additional observations from a re-analysis of the deposited data

How the results depend on the processing

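The calls of Tmsb10, Pfn1, Actb and Actg1 in both comparisons of shMCT-1 with scramble held under all 18 alternatives. The number of members called was 4 to 5 within IgG and within anti-IL-6R, and 0 for anti-IL-6R and the interaction. The calls of other actin genes numbered 40 to 58 within IgG and 37 to 54 within anti-IL-6R with a library left out. The difference in the ratio of Actg1 to Actb was 0.17 to 0.24 (log2) with a library left out, where 3 against 4 cannot give an exact p under 0.0571. The replicate numbers did not pair the libraries (correlations of deviations -0.08 to 0.11 over the pairs of groups); with the block, 4 and 5 members and 53 and 52 other actin genes were called, and with the block and the length and GC correction together 4, 4, 50 and 48, as Cfl1 within anti-IL-6R was lost (log2 fold change 0.26, adjusted p = 0.0514, edgeR).

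Of 1161 recomputed values of single genes, 31 changed sign, none of them called. With library totals alone these were Tpm1 within anti-IL-6R (-0.0257), Srf within IgG (-0.0114) and Cap1 within anti-IL-6R (-0.00628). With the length and GC correction, without and with the block, Srf went to -0.189 and -0.190 within IgG and to -0.103 within anti-IL-6R. With a library left out, the following ranges crossed 0. For anti-IL-6R in scramble they were -0.159 to 0.118 (Tmsb4x), -0.310 to 0.0267 (Tmsb10), -0.047 to 0.203 (Pfn1), -0.00654 to 0.127 (Actb), -0.0222 to 0.231 (Actg1) and -0.224 to 0.0265 (Tpm1). For anti-IL-6R in shMCT-1 they were -0.178 to 0.0123 (Tmsb10), -0.0197 to 0.207 (Cfl1) and -0.0233 to 0.0667 (Tpm1). For the interaction they were -0.117 to 0.220 (Tmsb10), -0.118 to 0.133 (Pfn1), -0.0122 to 0.241 (Actg1) and -0.00602 to 0.244 (Tpm1). For shMCT-1 within IgG they were -0.218 to 0.0352 (Tpm1), -0.0079 to 0.0708 (Srf), -0.097 to 0.0069 (Cap1) and -0.00827 to 0.235 (Tpm4), and within anti-IL-6R -0.0144 to 0.138 (Cap1) and -0.265 to 0.0254 (Myh9). The cause of these changes was not tested. Members at a few counts per library (Acta2, Tagln, Myl9) are below what this depth can compare.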
